A study of Mus musculus with 6 samples.

Results

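The stress-inducible zinc finger gene Zfand2a and the inducible heat shock genes were followed in the anterior cingulate cortex (ACC), a frontal midline region, of adolescent C57BL/6 mice. The 9 members were taken by symbol, 8 as target genes of the heat shock transcription factor HSF1 and Hsf1 as the factor itself, and all 9 were among the 14250 rows of the count table. They were selected on that known role and on the LPS to saline differences in these counts, which were in view when the list was drawn up. Their differences are therefore given as a description without p-values. Where members called by edgeR are counted, the call comes from the fit over all rows and carries no weight as evidence for the group. LPS mice (3 animals, 1 library each) had received lipopolysaccharide, a bacterial endotoxin, at 50 µg per kg on postnatal day 14. Saline mice (3 animals, 1 library each) had received pyrogen-free saline on the same day by the same intraperitoneal route. All 6 were of the same strain, and ACC was dissected on postnatal day 45 after anaesthesia and perfusion with cold buffer. Sex, litter and hour of collection are not stated in the sources used here.

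Cells answer heat, oxidants, heavy metals and misfolded protein by releasing HSF1 from chaperones, after which HSF1 forms trimers and binds heat shock elements, arrays of the unit nGAAn in alternating orientation. Its targets code for chaperones that hold, refold or hand over damaged proteins, and their products in turn restrain HSF1. In brain, the constitutive Hsp70 gene Hspa8 and the Hsp90 genes are expressed at high levels without stress, while the Hsp70 genes Hspa1a and Hspa1b are kept low in unstressed neurons. Zfand2a (also called AIRAP) was named for its induction by arsenite, and its product associates with the proteasome.

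Promoter windows run from 250 bases before to 50 bases after the annotated RNA start (RefSeq, GRCm38.p6). A gene missing from the set of windows used here may still have an annotated start. The set held 6 of the 9 genes. They were Zfand2a, Hspa1a, Hspa1b, Hsph1, Dnajb1 and Bag3. Hsph1 and Dnajb1 had 2 windows each, and the outermost one was used. The sequences below are shown because Zfand2a and the Hspa1 pair differed between the groups in opposite directions, and because the pair is almost the same in sequence. Runs are written 5′ to 3′ on the strand of the gene, which is the minus strand for all 3. Capitals mark exact matches to a pair of heat shock units and, in Zfand2a, also to the cAMP response element TGACGTCA. The Zfand2a run covers chr5:139484550-139484741, the 192 bases before the outermost annotated start. The Hspa1a run covers chr17:34972157-34972406 and the Hspa1b run chr17:34959239-34959488, 250 bases each.
Zfand2a: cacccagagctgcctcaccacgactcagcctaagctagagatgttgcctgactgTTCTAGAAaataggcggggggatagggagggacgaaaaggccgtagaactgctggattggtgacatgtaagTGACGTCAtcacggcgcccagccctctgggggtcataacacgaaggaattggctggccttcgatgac
Hspa1a: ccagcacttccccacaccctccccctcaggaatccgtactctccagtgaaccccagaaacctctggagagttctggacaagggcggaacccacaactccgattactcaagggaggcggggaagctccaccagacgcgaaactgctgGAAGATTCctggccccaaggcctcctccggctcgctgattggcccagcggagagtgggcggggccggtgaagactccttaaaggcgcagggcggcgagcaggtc
Hspa1b: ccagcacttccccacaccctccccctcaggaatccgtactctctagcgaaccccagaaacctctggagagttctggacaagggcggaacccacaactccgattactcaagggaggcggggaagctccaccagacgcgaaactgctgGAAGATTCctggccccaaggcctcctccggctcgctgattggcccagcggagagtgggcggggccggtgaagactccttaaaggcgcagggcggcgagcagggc

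The Hspa1a and Hspa1b runs differed at 3 of 250 bases. Counted from 1 at the 5′ end, with the Hspa1a base first, these were C44T, T47C and T249G. Both carried one GAANNTTC match, which began 104 bases before the start. Zfand2a carried one TTCNNGAA match 196 bases and one TGACGTCA match 125 bases before the RefSeq start. Each of these motifs reads the same on both strands. GAANNTTC or TTCNNGAA occurred in 15.1% of 32851 promoter windows of the same 300 bases, and in 5 of the 6 members' windows. These members were chosen as HSF1 targets, and the windows of Hspa1a and Hspa1b are almost the same, so nothing is read from that count. TGACGTCA occurred in 1.79% of all windows and in 1 of the 6.

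An array of 3 alternating units, TTCNNGAANNTTC or its reverse complement GAANNTTCNNGAA, was found in 0.603% of windows and in 1 member, Hsph1. It overlaps the shorter matches of that gene. The Hsph1 array lay just after the annotated start and Bag3 had a single GAANNTTC match there, shown here as sites of 30 bases on the minus strand (chr5:149636287-149636316) and the plus strand (chr7:128523603-128523632). Hsph1 held a further TTCNNGAA match 33 bases before the start. Dnajb1 held no exact match to these motifs in the outermost window or in the inner one, 373 bases further in, which says only that these letters are not there. The inner window of Hsph1, shifted by 21 bases, held the same number of matches, 3 to the shorter motifs and 1 array.
Hsph1: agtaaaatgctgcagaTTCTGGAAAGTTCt
Bag3: ccaagttctctggatgggaccaGAAGTTTC

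**Figure D1:**
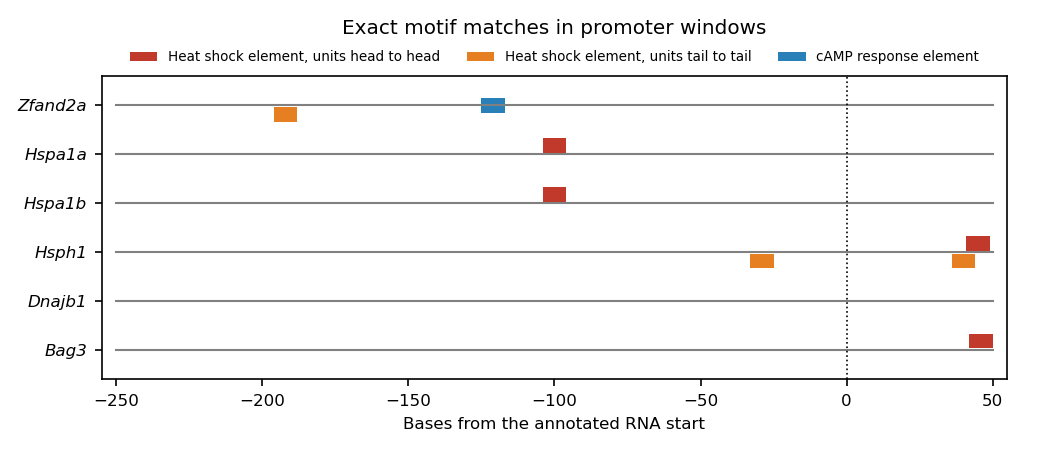
Exact matches to heat shock unit pairs and to the cAMP response element in the promoter windows of 6 genes, plotted by bases from the annotated RNA start (dotted line at 0). Hspa1a and Hspa1b show the same single match 104 bases before the start, and Zfand2a a match at 196 and an element at 125 bases before it.

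Zfand2a was higher in each LPS mouse than in any saline mouse. Its level was 72.8, 67.9 and 72.4 CPM (read counts scaled to library size, with TMM factors) in the LPS libraries, against 27.1, 30.8 and 26.1 CPM in the saline libraries. The groups lay far apart and each was tight, with the highest library 1.07 times the lowest in LPS and 1.18 times in saline mice. Means were 71.0 ± 2.75 CPM in LPS and 28.0 ± 2.49 CPM in saline mice (SD, n = 3 each). The edgeR log2 difference, LPS relative to saline, was 1.34 (SE 0.0777), which is 2.54-fold. Raw counts were 3054, 2746 and 2644 in LPS and 1035, 1234 and 993 in saline libraries. Zfand2a lies on chromosome 5 at 139471211 to 139484549 (GRCm38, minus strand), with no other gene of GENCODE M21 overlapping its exons.

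Hspa1a and Hspa1b, which code for the stress-inducible Hsp70 that binds unfolded protein, were lower in each LPS mouse than in any saline mouse. Hspa1b had 12.6, 12.7 and 12.3 CPM in LPS libraries, against 21.9, 21.5 and 19.7 CPM in saline libraries. Hspa1a had 12.2, 12.5 and 9.70 CPM in LPS libraries, against 16.8, 23.2 and 20.4 CPM in saline libraries. Neither gene's groups overlapped, and Hspa1a varied more within each group than Hspa1b. Hspa1b averaged 12.5 ± 0.194 CPM in LPS and 21.0 ± 1.19 CPM in saline mice (SD, n = 3 each), a log2 difference of -0.75 (SE 0.0855). Hspa1a averaged 11.5 ± 1.55 and 20.2 ± 3.23 CPM in LPS and saline mice (SD, n = 3 each), with a log2 difference of -0.81 (SE 0.142).

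Reads of this pair can be shared, so the split between the rows is uncertain. The genes lie 9.95 kb apart on the minus strand of chromosome 17, Hspa1b at 34956436 to 34959238 and Hspa1a at 34969190 to 34972156 (GRCm38). Of the 100-base windows of the Hspa1a transcript, 47.1% occurred unchanged in Hspa1b, and 49.9% of those of Hspa1b in Hspa1a. With windows of 150 bases the shares were 38.1% and 40.5%. The read length is not stated in the sources used here. Hspa1a is also overlapped on the other strand by the predicted gene Gm20481, which was not analysed here, and the kit is not stated to keep strand.

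Counted together, the pair had 24.8, 25.2 and 22.0 CPM in LPS libraries, against 38.7, 44.8 and 40.1 CPM in saline libraries. The sum does not depend on how shared reads were divided, provided each was counted once, which is not stated in the sources used here. The groups of the sum did not overlap. Its log2 difference was -0.78 (SE 0.0866), between those of the single rows. The share of the pair's counts placed in Hspa1a was 49.3%, 49.6% and 44.0% in LPS libraries and 43.4%, 51.9% and 51.0% in saline libraries, so the division itself overlapped between the groups.

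**Figure D2:**
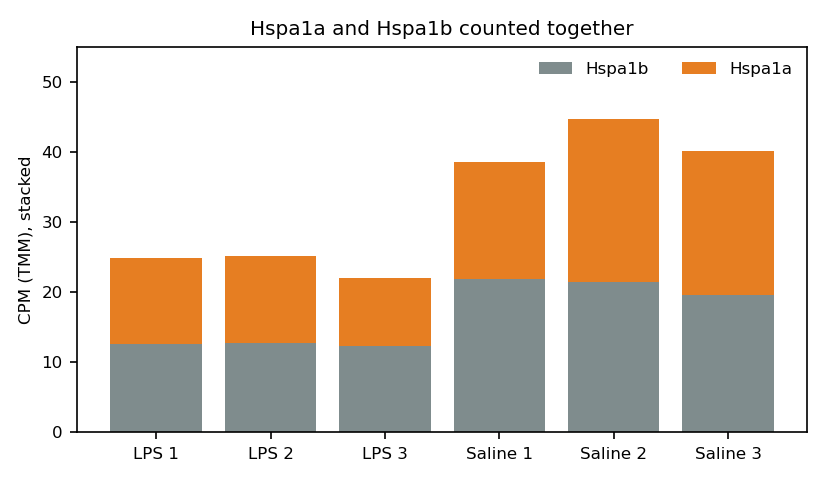
Stacked CPM of Hspa1b (grey) and Hspa1a (orange) in each library, LPS libraries on the left. The stacks reach 22.0 to 25.2 CPM in LPS and 38.7 to 44.8 CPM in saline libraries.

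The other induced chaperone genes did not separate the groups. Dnajb1, the J-domain partner that delivers clients to Hsp70, had 60.5, 72.7 and 75.0 CPM in LPS libraries, against 87.8, 84.3 and 67.9 CPM in saline libraries (log2 difference -0.21, SE 0.118). Saline 3 lay among the LPS libraries. Bag3, a nucleotide exchange factor that links Hsp70 to autophagy, had 6.89, 9.39 and 9.04 CPM in LPS libraries and 8.83, 8.69 and 9.65 CPM in saline libraries (log2 difference -0.10, SE 0.136). Here LPS 1 was low and the rest overlapped.

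Hsph1 and Hsp90aa1 had a wider range of CPM in LPS mice than in saline mice. Hsph1, an Hsp110 chaperone that recharges Hsp70, had 288, 256 and 182 CPM in LPS libraries, against 232, 207 and 243 CPM in saline libraries (log2 difference 0.09, SE 0.181). LPS 1 was the highest and LPS 3 the lowest of all 6 libraries. Hsp90aa1, the inducible cytosolic Hsp90, had the same extremes in CPM, with 869, 779.9 and 673 CPM in LPS libraries against 855, 829 and 858 CPM in saline libraries (log2 difference -0.13, SE 0.0854). The coefficient of variation of Hsp90aa1 was 12.7% in LPS and 1.91% in saline mice, and that of Hsph1 was 22.5% and 7.99%. It was also larger in LPS than in saline mice for Hsf1 (22.4% and 5.16%), Bag3 (16.0% and 5.70%) and Hspa8 (1.75% and 0.132%). For Zfand2a, Hspa1a, Hspa1b and Dnajb1 it was smaller in LPS mice. In the authors' FPKM, Hsp90aa1 had 251, 235 and 189.9 in LPS libraries, against 236, 264 and 273 in saline libraries. LPS 3 was again the lowest, but Saline 2 and Saline 3 stood above LPS 1, and means were 225 ± 31.6 FPKM in LPS and 258 ± 19.2 FPKM in saline mice (SD, n = 3 each), a smaller contrast in spread than in CPM. For Hsph1 the coefficients of variation in FPKM were 23.9% in LPS and 7.25% in saline mice. For Hspa8 they were much closer than in CPM, at 3.63% and 2.28%. For Hsf1 they were 24.7% and 4.97%, and for Bag3 14.4% and 7.38%. With 3 mice per group these differences in spread were not tested.

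The constitutive Hsp70 gene Hspa8 was nearly level. It had 1569, 1538 and 1515 CPM in LPS libraries, against 1613, 1609 and 1609.5 CPM in saline libraries. In CPM the groups did not overlap, but the log2 difference was -0.06 (SE 0.0497). In the authors' FPKM they did overlap, with 614, 575 and 580.1 in LPS libraries against 604, 628 and 629.6 in saline libraries. Hspa8 and Hsp90aa1 have processed pseudogenes, and snoRNA genes that were not analysed here overlap annotated exons of Hspa8, so reads of both rows may be shared. Hsf1 had 18.9, 28.9 and 28.8 CPM in LPS libraries, against 25.2, 26.7 and 24.1 CPM in saline libraries (log2 difference 0.01, SE 0.162). LPS 1 was below and the other LPS libraries above all saline libraries.

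Of the 9 members, 1 was called higher in LPS mice (Zfand2a) and 1 lower (Hspa1b) by edgeR at an adjusted p under 0.05 over all rows. Of all 14250 rows, 0.0982% were called higher and 0.189% lower, 0.288% in all. In CPM the groups did not overlap in 4 of 9 members, 1 with LPS higher and 3 with LPS lower (Hspa1a, Hspa1b and Hspa8). Over all rows the share was 13.7%, 6.84% in each direction. In the authors' FPKM the groups of Hspa8 overlapped. Since the members were chosen with this contrast known, nothing is read from these counts. The median log2 difference was -0.10 over the members and 0.00 over all rows.

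**Figure D3:**
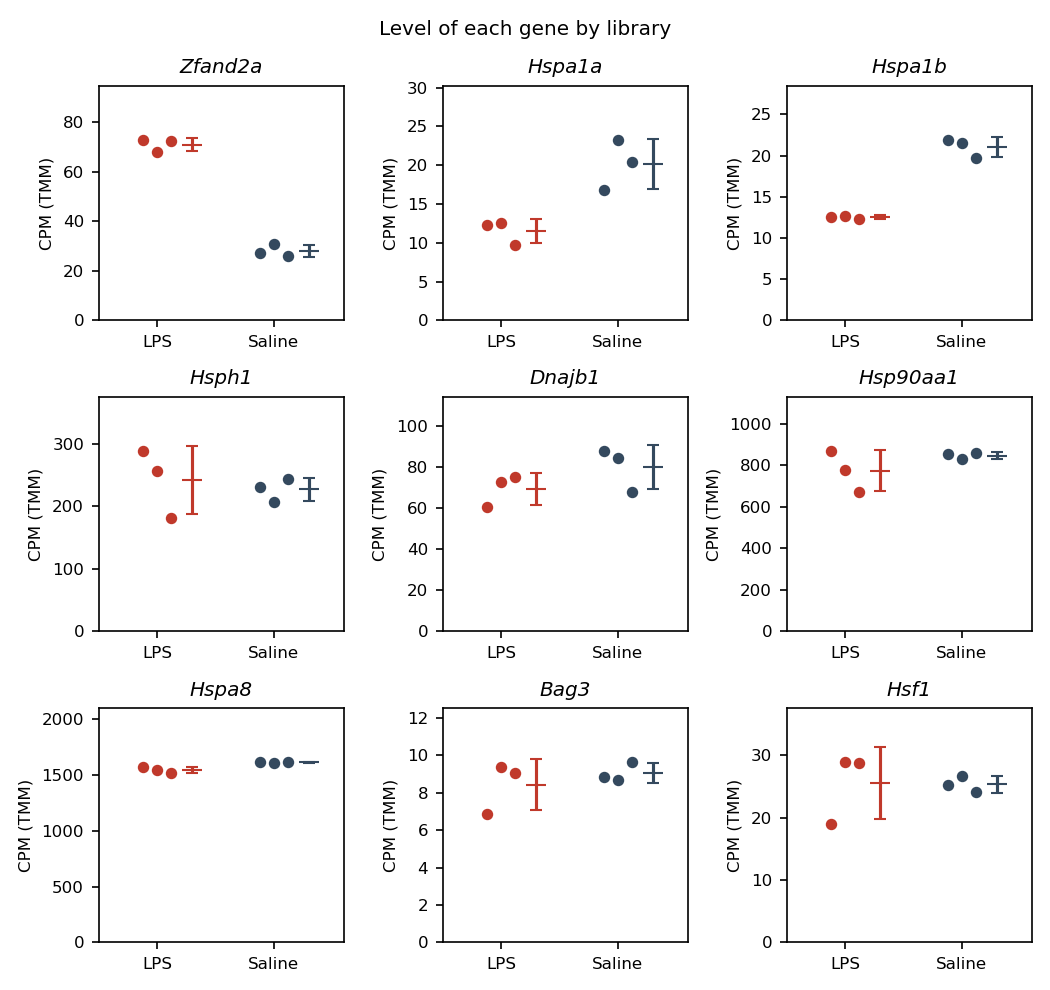
CPM of each of the 9 genes in the 3 LPS and 3 saline libraries (dots, in order of replicate number), with mean and SD beside them and each axis starting at 0. Zfand2a stands at 67.9 to 72.8 CPM in LPS against 26.1 to 30.8 CPM in saline libraries. Hspa1a and Hspa1b are lower in LPS. The other genes overlap apart from the narrow gap in Hspa8, which is absent in the authors' FPKM.

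Levels were compared between genes with the authors' FPKM values, which are scaled by length. In saline mice Hspa8 stood highest at 621 ± 14.2 FPKM, above 99.8% of all rows, followed by Hsp90aa1 at 258 ± 19.2 and Hsph1 at 61.0 ± 4.42 FPKM (SD, n = 3 each). Dnajb1 came next at 24.5 ± 2.88 FPKM, then Hsf1 at 11.8 ± 0.585, Zfand2a at 8.19 ± 0.815 and Hspa1b at 6.87 ± 0.298 FPKM (SD, n = 3 each). Hspa1a at 6.25 ± 1.13 FPKM overlapped Hspa1b, and Bag3 was lowest at 3.24 ± 0.239 FPKM. The inducible Hsp70 genes thus sat near the middle of the table in saline mice, above 46.1% of rows for Hspa1a and 49.0% for Hspa1b. No other neighbours in this order overlapped between libraries.

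The order of the means changed in LPS mice only for Zfand2a, which stood above Hsf1 there. Zfand2a, at 20.7 ± 1.20 FPKM in LPS mice, overlapped Dnajb1 at 21.1 ± 2.10 FPKM and lay above Hsf1 at 12.6 ± 3.11 FPKM (SD, n = 3 each). Hspa1b had 4.08 ± 0.0840 FPKM in LPS mice and lay just above Hspa1a at 3.53 ± 0.470 FPKM, which overlapped Bag3 at 3.00 ± 0.432 FPKM. The ratio of FPKM to counts, set against each library's median ratio, departed from the gene's own mean by up to 7.3% in Hsf1 and 5.5% in Hsp90aa1. In the other 7 genes it departed by at most 1.0%. The log2 ratio of group means was 1.34 in both FPKM and CPM for Zfand2a and -0.75 in both for Hspa1b, but 0.10 in FPKM and 0.01 in CPM for Hsf1.

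Other cytosolic chaperones and co-chaperones were not called. Of 47 measured genes of this list (small heat shock proteins, Hsp70 and Hsp90 partners, the CCT ring and the other HSF genes), 0 passed edgeR over all rows, DESeq2 called 1 and limma-voom 0. Of all rows edgeR called 0.288%, DESeq2 0.983% and limma-voom 0.239%, so a count of 0 in a list of this size is near the background. At an unadjusted edgeR p under 0.05 stood 3 of the 47, against 7.17% of all rows. The median log2 difference was -0.01, against 0.00 over all rows. Hsf4, an HSF1 relative best known from the lens, had 9.78, 8.60 and 9.59 CPM in LPS libraries, against 13.5, 13.1 and 12.5 CPM in saline libraries (log2 difference -0.48, SE 0.0993, edgeR adjusted p = 0.138). Its groups did not overlap, and it was the gene DESeq2 called (adjusted p = 0.0216). The next smallest p belonged to Bag2, a BAG-domain co-chaperone, with a log2 difference of -0.27 (SE 0.0962), and to the J-domain gene Dnaja4 with -0.20 (SE 0.0703). Their edgeR adjusted p were 0.560 and 0.567.

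Further genes of this list known from the heat shock response are given as values, and they were chosen after their values were seen. Log2 differences were -0.10 for Hspb1 (SE 0.123), 0.10 for Cryab (SE 0.114), both small heat shock proteins, and -0.08 for Dnaja1 (SE 0.0691), a J-domain partner of Hsp70. They were -0.07 for Stip1 (SE 0.0581), which bridges Hsp70 and Hsp90, and -0.08 for Chordc1 (SE 0.0667), an Hsp90 co-chaperone. Dnajb4, another J-domain gene, had 44.1, 42.1 and 24.3 CPM in LPS libraries and 25.9, 26.3 and 25.9 CPM in saline libraries (log2 difference 0.50, SE 0.232). LPS 3 matched saline there. edgeR did not call it over all 6 libraries (adjusted p = 0.737), but did without LPS 3 (log2 difference 0.73, SE 0.0751, adjusted p = 0.00737). How the authors assigned reads to loci is not given in the sources used here, and its part in such jumps between libraries of a group was not tested.

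Among 11604 rows with a mean of at least 5 CPM, 9.51% differed by a factor of 1.5 or more between libraries of the same group, and 2 of the 9 members did (Hsph1 and Hsf1, both in LPS mice). A factor of 2 or more was seen in 3.44% of these rows and in 0 members. LPS 1 was the highest library in 17 of the 47 cytosolic chaperone genes (36.2%), against 16.5% of all rows. LPS 3 was the lowest in 8 of the 47 (17.0%), against 16.6% of all rows, although it was the lowest for 5 of the 9 members.

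The relatives of Zfand2a were not called. The list of other AN1-type zinc finger genes, the ATPase VCP with its cofactors, and proteasome subunits, with Nfe2l1 and Rad23b, had 31 measured genes. In this list edgeR, DESeq2 and limma-voom each called 0, no gene reached an unadjusted p under 0.05 (0 of 31), and the median log2 difference was 0.01. Of all rows edgeR called 0.288%, DESeq2 0.983% and limma-voom 0.239%, and 7.17% stood under 0.05 before adjustment, so 0 calls in 31 genes is near the background. Zfand2b, another AN1-type gene, had 13.1, 12.0 and 14.5 CPM in LPS libraries, against 12.2, 11.8 and 15.4 CPM in saline libraries (log2 difference 0.01, SE 0.126). Zfand5 had a log2 difference of 0.02 (SE 0.0591) and Vcp of 0.03 (SE 0.0785). All 3 were picked with their values in view, as was Nfe2l1. Nfe2l1 had 356, 357 and 357 CPM in LPS libraries, against 368, 77.7 and 362 CPM in saline libraries (log2 difference 0.41, SE 0.646). The part of read assignment in the low value of Saline 2 was not tested. The smallest p were those of the proteasome genes Psmb5 (log2 difference -0.16, SE 0.0889), Psmd1 (-0.09, SE 0.0511) and Psmc4 (0.10, SE 0.0593), with edgeR adjusted p of 0.759, 0.761 and 0.784.

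Among the oxidative stress and metal response genes, edgeR, DESeq2 and limma-voom each called 0 of 19, against 0.288%, 0.983% and 0.239% of all rows. Before adjustment 1 of the 19 stood under 0.05, against 7.17% of all rows. That gene, the metallothionein Mt2, had 60.2, 72.2 and 69.4 CPM in LPS libraries, against 55.8, 53.8 and 58.9 CPM in saline libraries (log2 difference 0.26, SE 0.0778, edgeR adjusted p = 0.444). Hmox1, the haem oxygenase gene that oxidants induce, had a log2 difference of -0.08 (SE 0.213) and was chosen after its values were seen. Gclc, which makes the first enzyme of glutathione synthesis, had 0.11 (SE 0.0672) and the sulfiredoxin gene Srxn1 -0.08 (SE 0.0605). Their edgeR adjusted p were at least 0.783. The median log2 difference of the list was -0.02.

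In the endoplasmic reticulum stress list edgeR and limma-voom called 0 of 23 and DESeq2 called 1, against 0.288%, 0.239% and 0.983% of all rows. Before adjustment 2 of the 23 stood under 0.05, against 7.17% of all rows. The median log2 difference was -0.02. Atf3, a stress-induced transcription factor gene, had 0.453, 0.222 and 0.219 CPM in LPS libraries, against 1.26, 1.45 and 1.16 CPM in saline libraries (log2 difference -2.09, SE 0.373, edgeR adjusted p = 0.0752). It was low in every library, and DESeq2 called it (adjusted p = 0.00207), as did edgeR without LPS 1 (log2 difference -2.53, adjusted p = 0.0487). Ppp1r15a, which ends the translational stress block, had a log2 difference of -0.31 (SE 0.110, edgeR adjusted p = 0.571) and Herpud1, a factor in endoplasmic reticulum degradation, -0.13 (SE 0.0718, adjusted p = 0.759). In the mitochondrial list all 3 tools called 0 of 10 and 0 stood under 0.05 before adjustment, which at these shares of all rows is near the background, and the median log2 difference was 0.00. Trap1, the mitochondrial Hsp90, had a log2 difference of -0.12 (SE 0.0539), the chaperonin gene Hspd1 -0.11 (SE 0.0539) and the co-chaperone gene Dnaja3 0.17 (SE 0.127).

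**Figure D4:**
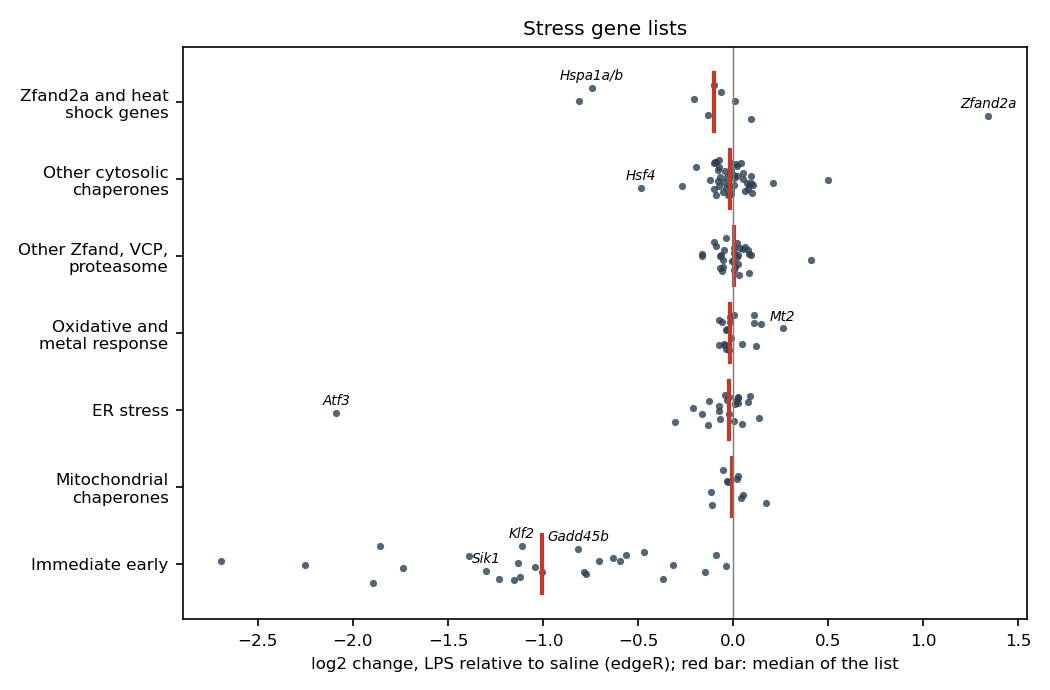
Log2 difference between LPS and saline mice (edgeR) for each measured gene of 7 lists, with the list median as a red bar and a few genes named. Medians lie between -0.10 and 0.01 in the first 6 lists, and at -1.01 among the immediate early genes.

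Most immediate early genes, which cells switch on within minutes of stimulation, were also lower in LPS mice. Of 27 such genes edgeR called 11 lower and 0 higher, against 0.189% and 0.0982% of all rows, and the median log2 difference was -1.01. In 20 of the 27 every LPS library lay below every saline library, against 6.84% of all rows. The groups of the rest overlapped, among them Jund (log2 difference -0.04, SE 0.0587), Egr1 (-0.32, SE 0.231) and Npas4 (-1.13, SE 0.732). The list was put together with earlier results of these data known, so its direction is not independent evidence. The 11 were Apold1, Cyr61, Dusp1, Dusp5, Dusp6, Gadd45b, Klf2, Klf4, Nr4a1, Nr4a2 and Sik1, with log2 differences of -2.69 to -0.63. Among 11072 named genes with a mean of at least 5 CPM, the 5 whose log2 CPM followed Hspa1b most closely over the 6 libraries were Gadd45b, Klf2, Sik1, Kdm2a and Nr4a1. Pearson r ran from 0.991 to 0.998 over 6 libraries, all of them lower in LPS mice, and all but Kdm2a are in that list. Gadd45b, a stress and growth arrest gene, had 10.5, 10.5 and 10.4 CPM in LPS libraries, against 19.8, 18.4 and 16.8 CPM in saline libraries. No such ranking was made for Hspa1a, which within saline mice ran otherwise, since Saline 1 was its lowest saline library and the highest for Gadd45b. A like ranking for Zfand2a gave Hmga1, Hes5, Smim3, Wrb and Dvl1, with r from 0.987 to 0.994. Of these, Wrb (log2 difference 2.01, SE 0.0980), Hmga1 (1.04, SE 0.0772) and Hes5 (0.91, SE 0.0952) had large differences, and Smim3 (0.39, SE 0.113) and Dvl1 (0.15, SE 0.0508) smaller ones. The 6 libraries fall into the same 2 groups for every gene, so any gene with a like gap between them ranks high, and the r values are descriptions.

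Measured genes near these loci were few. Within 100 kb of Zfand2a, 3 of 7 other annotated genes were measured and 0 were called, with 0 at an unadjusted p under 0.05. The nearest, 3110082I17Rik at 10.7 kb, averaged 9.03 CPM in LPS and 8.60 CPM in saline mice (log2 difference 0.07, SE 0.107). Gpr146 (0.32, SE 0.391) and the oestrogen receptor gene Gper1 (0.04, SE 0.153) were the others. Within 100 kb of the Hspa1 pair, 9 of 26 were measured, 0 were called and 1, Zbtb12, had an unadjusted p under 0.05 (log2 difference 0.75, SE 0.305, edgeR adjusted p = 0.690). With 0.288% of all rows called and 7.17% under 0.05 before adjustment, these counts are near the background. Hspa1l, a germ-cell Hsp70 whose start lies 0.547 kb from Hspa1a on the other strand, averaged 12.5 CPM in LPS and 12.6 CPM in saline mice (log2 difference -0.01, SE 0.110).

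Libraries held 36168687 to 41270737 counts in LPS and 37416194 to 39804999 in saline mice. All 8 neuron markers were detected in each group, with summed levels of 7849.6 to 8288 CPM in LPS and 7764 to 8703 CPM in saline libraries. Endothelial markers summed to 372 to 379 CPM in LPS and 366 to 382 CPM in saline libraries, and microglial markers to 369 to 396 CPM in LPS and 358 to 378 CPM in saline libraries. Within the microglial list members ran apart. Cx3cr1 had 5.41, 35.3 and 36.1 CPM in LPS libraries, against 5.68, 10.5 and 10.9 CPM in saline libraries, and its groups overlapped. Aif1 (log2 difference -0.47, SE 0.182) and C1qa (-0.17, SE 0.0738) were lower in each LPS mouse than in any saline mouse, and edgeR called none of the 3. Oligodendrocyte markers summed to 1884 to 2571 CPM in LPS and 1874 to 2395 CPM in saline libraries, and mural cell markers to 396 to 459 and 378 to 430.0 CPM. Meningeal markers summed to 115 to 198 CPM in LPS and 95.8 to 182 CPM in saline libraries, and striatal markers to 158 to 168 and 160.2 to 166 CPM. Astrocyte markers spanned 3050.0 to 6120.1 CPM in LPS and 3149 to 5648 CPM in saline libraries, mainly through Slc1a2, which ranged from 752 to 3755 CPM in LPS and from 866 to 3365 CPM in saline libraries. For Slc1a2 and Cx3cr1 too, the part of read assignment in these jumps was not tested. Single markers outside the microglial list also ran apart from these sums. Gad2 (log2 difference 0.27, SE 0.0788) was higher in each LPS mouse than in any saline mouse. Snap25 (-0.13, SE 0.0610), Kdr (-0.24, SE 0.0830), S100b (-0.18, SE 0.0605) and Sox10 (-0.16, SE 0.0685) were lower in each. Of all rows, 13.7% had groups that did not overlap. No marker in these 8 lists was at 0 or called by edgeR, and the part of cell makeup in the results was not tested. In bulk tissue, fewer cells of a type and less RNA per cell cannot be told apart.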

How the data were processed

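RNA of 6 mice was analysed, 3 per group. The authors deposited raw counts per gene row and library and FPKM values beside them. The submitters' processing notes name TopHat2 2.1, DESeq 1.10.1 and GRCm38, without roles. The counter, the annotation release and the length behind the authors' FPKM are not stated in the sources used here. Of 14250 rows, 688 were newGene rows without a position, and 23 symbols that had become dates were restored by gene identifier.

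The test on counts was edgeR 4.0.16 in R 4.3.3 (quasi-likelihood with the robust option, TMM factors, filterByExpr, which removed 0 rows). Treatment was the only term, two-sided p-values were adjusted over all rows (Benjamini-Hochberg), and the threshold was 0.05. Log2 differences are LPS relative to saline. CPM were computed with TMM factors. The steps were tested on simulated counts. No libraries were near-duplicates (chi-square per degree of freedom at least 32.1). The 3 mice of a group are separate animals by the labels.

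The members and lists were chosen with earlier results of these data known. Named genes are the members, in each list the genes called or otherwise the 3 with the smallest p, the 5 rows closest to Zfand2a and to Hspa1b, and genes within 100 kb. Hspb1, Cryab, Dnaja1, Stip1, Chordc1, Dnajb4, Zfand2b, Zfand5, Vcp, Nfe2l1, Hmox1 and the marker genes named were added after their values were seen. Positions are from GENCODE M21. Alternatives were a replicate block, each library left out in turn, RLE factors, library totals only, DESeq2 1.42.0, limma-voom (limma 3.58.1), limma on log2(FPKM + 1) for rows averaging 0.5 FPKM or more, no filter, rows averaging 50 counts or more, a threshold of 0.1, and Hspa1a and Hspa1b summed.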

Additional observations from a re-analysis of the deposited data

How the results depend on the processing

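Members were chosen with this contrast known, so their calls are a description. Zfand2a had the same direction and was called under all 16 alternatives (log2 1.24 to 1.42). So were Hspa1b under all 15 (-0.79 to -0.63) and the summed pair under all 15 (-0.82 to -0.71). Some alternatives could not change these calls. The filter removed 0 rows, so leaving it out repeated the main fit, and a threshold of 0.1 cannot lose a call. Summing the pair left the counts of Zfand2a unchanged. Hspa1a, not called by edgeR, was called by DESeq2 (log2 -0.81), without Saline 1 (-0.93) and at a threshold of 0.1 (-0.81). Members called lower were therefore 2 in those 3 settings, and 1 to 2 when 1 library was left out. Over all rows, DESeq2 called 60 genes higher and 80 lower, limma on FPKM called 8 higher, and a threshold of 0.1 gave 23 higher. Leaving out 1 library gave 14 to 20 higher and 22 to 35 lower. DESeq2 called 1 other cytosolic chaperone lower (Hsf4), and leaving out 1 library gave 0 to 1 higher (Dnajb4, without LPS 3). Of the other stress lists, 1 gene (Atf3) was lower with DESeq2 and at a threshold of 0.1, and 0 to 1 when 1 library was left out (without LPS 1). Over the fits without 1 library, log2 differences ran from -0.19 to 0.03 for Bag3, -0.05 to 0.26 for Hsph1 and -0.09 to 0.19 for Hsf1. Signs near 0 turned for Bag3 without LPS 1 (0.03), for Hsph1 without LPS 1 (-0.05), and for Hsf1 with limma-voom (-0.02), with the replicate block (-0.01) and without LPS 2 (-0.09), LPS 3 (-0.08) or Saline 3 (-0.02). Apart from the looser threshold, the cause was not tested. Over all rows, same-numbered mice did not deviate together (correlations of -0.0266, 0.0252 and 0.0421). With 3 mice per group, and litter not stated, these values cannot show whether the numbers pair the mice. With the replicate number as a block, 10 genes were higher and 21 lower, and the members called were the same.

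With 3 mice per group and counts of 289 to 380 per library, differences in Bag3 as small as its SE of 0.136 on the log2 scale could not be resolved. Much larger ones could also go uncalled, since edgeR did not call Hspa1a at a log2 difference of -0.81 (SE 0.142).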
